A study of Mus musculus with 48 samples.

Results

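Knockdown of Atf3 was compared with knockdown of Atf4, library against library, in cultured cells of the dorsal root ganglia (DRG) of adult mice, where sensory neurons have their cell bodies. The comparison used every library of both groups by the treatment label: 4 siAtf3 and 4 siAtf4 libraries, 8 of the 48 in the series, with no control library in the contrast. All cells came from wild-type mice, were enriched for neurons, grew in Neurobasal-A with B27, and were harvested 42 h after isolation and transfection. The siAtf3 group received a pool of siRNAs against Atf3 and the siAtf4 group a pool against Atf4. Both thus share dissociation, transfection reagent and time in culture, and differ by label only in the targeted transcript. The siCONTROL group, 4 libraries given a control pool by its name, appears only as a level beside the others. Each target had 1 pool, protein was not measured, and cells other than neurons were still present. Whether the replicates came from different animals or dishes is not stated, so p-values cover only the spread between the libraries fitted, which may be technical.

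Atf3 and Atf4 are both basic leucine zipper transcription factors that bind DNA as dimers, Atf3 often with Jun and Atf4 often with C/EBP partners. Atf4 is made when eIF2α is phosphorylated in the integrated stress response, and it is known for switching on genes for amino acid synthesis, amino acid transport and tRNA charging. Atf3 is nearly silent in intact sensory neurons, is induced when their axons are cut, and is known for its part in the injury response that precedes axon regrowth.

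RNA was measured by poly(A) RNA sequencing, with 4848841 to 6087596 counts per siAtf3 library and 4821192 to 6060686 per siAtf4 library. Levels are given as CPM, counts normalised between libraries, and are compared only between libraries of 1 gene. On log2 CPM, pairs of siAtf3 libraries correlated at 0.960 to 0.967, pairs of siAtf4 libraries at 0.963 to 0.968, and pairs from different groups at 0.940 to 0.950. The first principal component of the 8 libraries, with 34.5% of the variance, put all siAtf3 libraries on 1 side and all siAtf4 libraries on the other. The second, with 13.9%, put replicates 1 and 2 of both groups on 1 side and replicates 3 and 4 on the other.

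Each pool lowered its own target and left the other high. Atf3 (ENSMUSG00000026628) stood at 246, 209, 243 and 168 CPM in the siAtf3 libraries, against 1196, 1244, 1096 and 1157 CPM in the siAtf4 libraries, and at 1096 to 1353 CPM in siCONTROL. The siAtf3 libraries all lay far below the siAtf4 libraries, and the siAtf4 and siCONTROL ranges overlapped. The log2 fold change, siAtf3 minus siAtf4, was -2.44 ± 0.10 (standard error, SE), a level 5.43-fold lower (adjusted p = 2.8e-17). Atf4 (ENSMUSG00000042406) mirrored this, at 589, 469, 603 and 501 CPM in the siAtf3 libraries, against 124, 103, 91.2 and 66.6 CPM in the siAtf4 libraries and 521 to 606 CPM in siCONTROL. Its log2 fold change was 2.49 ± 0.13, 5.61-fold higher in siAtf3 (adjusted p = 1.28e-14). All adjusted p-values are from the quasi-likelihood F test of edgeR with Benjamini-Hochberg adjustment over 14876 genes, with a threshold of 0.05.

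Of the 14876 genes tested, 1596 were higher in siAtf3 than in siAtf4 (10.7%) and 1805 were lower (12.1%), 22.9% in all. Scaling by column totals alone, with no correction for composition, turned this balance to 2057 higher and 1480 lower. Most differences were small: the median fold among called genes was 1.46 for the higher and 1.5 for the lower ones. At least a 2-fold difference was found for 295 higher genes (1.98% of those tested) and 356 lower genes (2.39%), and at least a 3-fold one for 129 higher and 122 lower. In 12.6% of the genes tested every siAtf3 library lay above every siAtf4 library, and in 13.6% every one lay below.

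**Figure D1:**
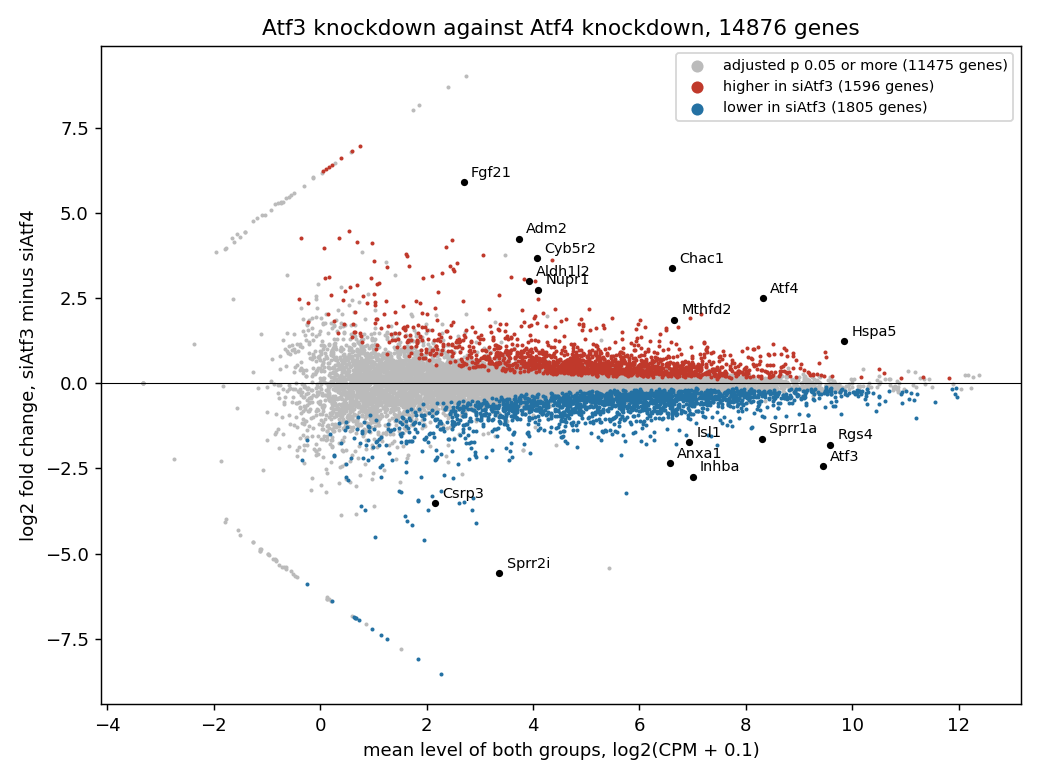
Log2 fold change (siAtf3 minus siAtf4) against the mean level of both groups, log2(CPM + 0.1), for the 14876 genes tested, with the 1596 genes higher and 1805 lower in siAtf3 coloured. Named points include Fgf21, Adm2, Chac1 and Atf4 above 0 and Atf3, Inhba, Anxa1 and Sprr1a below it. The outer diagonals hold genes with no counts in 1 group, whose fitted fold is no measure of size.

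The genes with the largest folds in favour of siAtf3 were led by secreted factors. Fgf21, a hormone of the fibroblast growth factor family, had 7.28, 13.7, 10.6 and 18.8 CPM in the siAtf3 libraries, against 0, 0.388, 0.411 and 0 CPM in the siAtf4 libraries. Every siAtf3 library lay above every siAtf4 library, where the gene was close to undetected (59.5-fold, log2 5.90 ± 0.79, adjusted p = 1.11e-06). Adm2, which encodes the peptide adrenomedullin 2, had 24.1, 24.5, 29.2 and 22.3 CPM in siAtf3 libraries, against 2.37, 1.36, 1.03 and 0.355 CPM in siAtf4 libraries. The groups were far apart here too (log2 4.25 ± 0.28, adjusted p = 1.28e-12). Chac1 (ENSMUSG00000027313), an enzyme that degrades glutathione, had 170.4, 160.3, 203 and 179.8 CPM in siAtf3 libraries and 20.1, 17.1, 18.9 and 12.3 CPM in siAtf4 libraries. It was 10.4-fold higher in siAtf3 (log2 3.38 ± 0.17, adjusted p = 3.12e-15), with siCONTROL between the groups at a mean of 112 CPM.

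The other 11 of the 14 largest differences spanned log2 fold changes of 3.29 to 4.19. Among them were Acox2, a peroxisomal acyl-CoA oxidase (10.4 CPM in siAtf3 and 0.52 CPM in siAtf4), Extl1, a glycosyltransferase of the exostosin family (9.57 CPM in siAtf3 and 0.601 CPM in siAtf4), and Stc2, a secreted glycoprotein (5.51 CPM in siAtf3 and 0.382 CPM in siAtf4). Cyb5r2, a cytochrome b5 reductase, averaged 31.2 ± 7.5 CPM in siAtf3 and 2.45 ± 1.07 CPM in siAtf4 (SD, n = 4 each), and Prr32 38 ± 1.31 CPM in siAtf3 and 3.06 ± 1.88 CPM in siAtf4. Trim66 averaged 15.4 CPM in siAtf3 and 1.14 CPM in siAtf4, and AA467197 10.9 CPM in siAtf3 and 0.917 CPM in siAtf4. Hmx3, a homeobox factor, averaged 9.84 CPM in siAtf3 and 0.88 CPM in siAtf4. Pla2g2e, a secreted phospholipase A2, averaged 10.1 CPM in siAtf3 and 0.962 CPM in siAtf4, and Cox6a2, a muscle form of a cytochrome c oxidase subunit, 10.2 CPM in siAtf3 and 1.02 CPM in siAtf4. Trdv1, a T cell receptor segment, was less certain, since its adjusted p of 0.0221 moved to 0.064, 0.063 and 0.0662 without siAtf4 replicate 2, 3 or 4.

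Large folds in the other direction included Inhba (ENSMUSG00000041324), which encodes the subunit of activin A. It stood at 36.2, 29.1, 42.3 and 25.4 CPM in the siAtf3 libraries, against 217, 214, 267 and 193 CPM in the siAtf4 libraries. All 4 siAtf3 libraries were below all siAtf4 libraries, 6.72-fold on average (log2 -2.75 ± 0.18, adjusted p = 1.13e-12). The siCONTROL libraries held 49.8 to 72.1 CPM, also below every siAtf4 library. Pilra, an inhibitory receptor of the immunoglobulin type, averaged 0.959 ± 0.572 CPM in siAtf3 and 13.3 ± 2.49 CPM in siAtf4 (log2 -3.73). Htr2b, a serotonin receptor, averaged 0.329 CPM in siAtf3 and 6.06 CPM in siAtf4, and Lrfn2, a synaptic adhesion protein, 1.89 CPM in siAtf3 and 10.02 CPM in siAtf4. Fndc9 averaged 1.02 CPM in siAtf3 and 11.8 CPM in siAtf4.

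Several of the other large negative folds belong to families of near-identical genes, whose counts can be exchanged between copies and are therefore uncertain. Sprr2i, of the small proline-rich family, had 0, 1.43, 0 and 0 CPM in siAtf3 libraries and 18.6, 23.7, 23.8 and 14.2 CPM in siAtf4 libraries. Lce6a and Lce1a2, of the late cornified envelope family, averaged 0.303 CPM in siAtf3 and 7.26 CPM in siAtf4 and 0.354 CPM in siAtf3 and 5.69 CPM in siAtf4. The histone H4 gene Hist1h4n had no count in any siAtf3 library, against 6.6, 17.5, 8.01 and 5.86 CPM in siAtf4 libraries. With an assumed floor of 3 counts over the siAtf3 group the gap is 70.8-fold, a figure that ignores spread and exchanged counts. Speer1 averaged 1.32 CPM in siAtf3 and 8.54 CPM in siAtf4, and its adjusted p of 0.035 became 0.0696 to 0.099 without siAtf3 replicate 2, 3 or 4 or siAtf4 replicate 1 or 2. Sox5os3 lies on the strand opposite Sox5, and whether the counting used strand is not given in the sources used here (0.954 CPM in siAtf3 and 8.48 CPM in siAtf4). Csrp3 and Car3 were lower in siAtf3 with edgeR but not with limma-voom (adjusted p = 0.199 and 0.0567), as was Hist1h4n (0.148).

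The gene lists here and below were chosen with earlier results of these data known, so their shares are descriptions and not tests. Of 15 ATF and CREB factors tested, 4 were higher (26.7%, against 10.7% of all genes tested) and 2 lower (13.3%, against 12.1%) in siAtf3. In each direction 1 of them is a targeted gene. Jdp2, a repressor that pairs with Jun proteins, averaged 20.7 ± 3.52 CPM in siAtf3 and 8.97 ± 1.27 CPM in siAtf4 and Atf6, the sensor of endoplasmic reticulum (ER) stress, 48.3 ± 1.34 CPM in siAtf3 and 21.8 ± 0.428 CPM in siAtf4 (log2 1.20 and 1.15). Atf5, an Atf4 relative, was also higher (376 CPM in siAtf3 and 237 CPM in siAtf4), and Crem, of the cAMP-responsive group, was lower (55.4 CPM in siAtf3 and 81.2 CPM in siAtf4, log2 -0.55 ± 0.10). Among 6 C/EBP factors, edgeR called Cebpb, Ddit3 and Cebpa higher (50%, against 10.7% of all genes tested). It called 0 lower (1 unadjusted, 0 by DESeq2 and limma-voom). DESeq2 called 2 higher, without Cebpa (adjusted p = 0.0635), and without siAtf4 replicate 3 edgeR called 1 lower. Ddit3, which encodes the stress factor CHOP, reached 593, 499, 681 and 517 CPM in siAtf3 libraries, against 305, 282, 300.5 and 268 CPM in siAtf4 libraries, with siCONTROL at a mean of 402 CPM. Its groups were well separated (log2 0.99 ± 0.12, adjusted p = 1.93e-07). Cebpg, the partner of Atf4, averaged 56.9 ± 5.31 CPM in siAtf3 and 33 ± 5.84 CPM in siAtf4 and did not pass (log2 0.79 ± 0.31, adjusted p = 0.0698), although no library overlapped between the groups. With the 8 libraries fitted alone its adjusted p was 0.00124. Cebpa lost its call without any of 6 of the 8 libraries (adjusted p up to 0.112), the exceptions being siAtf3 replicate 2 and siAtf4 replicate 1.

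Of 21 immediate early genes and AP-1 subunits, Nr4a2, Mafk, Ier2 and Ier3 were higher (19%, against 10.7% of all genes tested), with log2 fold changes of 0.48 to 1.11, and Jun was lower (4.76%, against 12.1%). Fos (log2 fold change 0.07), Fosl2 (0.14), Junb (0.21) and Egr1 (0.01) did not pass. Jun, the common partner of Atf3, averaged 291 ± 33.7 CPM in siAtf3 and 345 ± 15.5 CPM in siAtf4 (log2 -0.24 ± 0.08, adjusted p = 0.0275). That call rested on single libraries, with an adjusted p of 0.139, 0.0738 and 0.0698 without siAtf3 replicate 3, siAtf4 replicate 1 or siAtf4 replicate 4, and 0.0647 with column totals.

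Enzymes that make serine and load one-carbon units onto folate were higher in siAtf3. Of 14 tested, 8 were higher (57.1%, against 10.7% of all genes tested) and 0 lower, and the median log2 fold change was 0.71, against 0.0066 over all genes. At an unadjusted p under 0.05 there was 1 lower member, with 0 by DESeq2 and 1 by limma-voom. All 3 enzymes of serine synthesis were among them. Phgdh, the first step, had 96.6, 87, 122 and 111 CPM in siAtf3 libraries and 36.6, 31.7, 28.8 and 34.5 CPM in siAtf4 libraries. Psph, the last step, averaged 60.7 ± 9.52 CPM in siAtf3 and 18.5 ± 4.46 CPM in siAtf4, and Psat1, the middle one, 142 ± 9.48 CPM in siAtf3 and 64.3 ± 6.72 CPM in siAtf4 (SD, n = 4 each). No library overlapped between groups for any of the 3, and their log2 fold changes were 1.66 ± 0.12, 1.71 ± 0.18 and 1.14 ± 0.08.

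The mitochondrial branch of folate metabolism held the largest folds of this list. Aldh1l2, which oxidises formyl-folate in mitochondria, had 27.3, 24.6, 29.8 and 25.6 CPM in the siAtf3 libraries and 4.57, 3.5, 2.88 and 2.31 CPM in the siAtf4 libraries, 8-fold higher (log2 3.0 ± 0.20, adjusted p = 9.37e-13). Mthfd2, a mitochondrial dehydrogenase and cyclohydrolase, had 171, 148, 164 and 149 CPM in the siAtf3 libraries and 53.5, 42, 38.4 and 39.8 CPM in the siAtf4 libraries (log2 1.86 ± 0.12). For Shmt2, the mitochondrial serine hydroxymethyltransferase, the values were 92.6, 101, 108 and 100.1 CPM in siAtf3 and 28.6, 28.4, 31.2 and 23.4 CPM in siAtf4 (log2 1.85 ± 0.11). The siAtf3 libraries lay above all siAtf4 libraries for all 3. The cytosolic counterparts Shmt1 (log2 fold change -0.59) and Aldh1l1 (0.16) did not pass, while Mthfd1 did, with a small difference (0.41).

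Of 16 enzymes for asparagine, proline, alanine and related amino acids, 8 were higher in siAtf3 (50%, against 10.7% of all genes tested). There were 0 lower (also 0 unadjusted, by DESeq2 and by limma-voom), and the median log2 fold change was 0.31. Asns, asparagine synthetase, was tight within each group, at 378, 370.0, 387 and 365 CPM in siAtf3 libraries against 199, 199, 175 and 174 CPM in siAtf4 libraries (log2 1.01 ± 0.06, adjusted p = 1.2e-13). The siCONTROL mean of 373 CPM lay inside the siAtf3 range. Aldh18a1 and Pycr1, which make proline from glutamate, averaged 47.2 CPM in siAtf3 and 12.7 CPM in siAtf4 and 14.7 CPM in siAtf3 and 3.22 CPM in siAtf4 (log2 1.89 and 2.16). Gpt2, the mitochondrial alanine transaminase, and Bcat1, the cytosolic branched-chain transaminase, were higher by 1.09 and 1.22 on the log2 scale. Got1 (log2 fold change 0.04) and Got2 (-0.08) did not pass.

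In transsulfuration and glutathione metabolism 7 of 11 genes were higher (63.6%, against 10.7% of all genes tested) and 1 was lower (9.09%, against 12.1%). The median log2 fold change was 0.52. Beside Chac1, the largest difference was that of Cth, which makes cysteine from cystathionine (10.1, 10.02, 7.17 and 7.17 CPM in the siAtf3 libraries and 0.169, 1.36, 1.44 and 0.71 CPM in the siAtf4 libraries). Cth was low in every siAtf4 library (log2 3.23 ± 0.37, adjusted p = 7.34e-08). The glutathione-making enzymes Gclc (log2 fold change 0.65), Gclm (0.52) and Gss (0.54) and the reductase Gsr (0.76) were all higher. Ggct, another enzyme of glutathione breakdown, went the other way, with 28.3, 31.2, 33.2 and 41.5 CPM in siAtf3 libraries and 78.2, 71.5, 64.5 and 71.2 CPM in siAtf4 libraries (log2 -1.09 ± 0.18, adjusted p = 4.28e-05).

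Of 24 amino acid transporters tested, 11 were higher in siAtf3 (45.8%, against 10.7% of all genes tested) and 2 lower (8.33%, against 12.1%). The median log2 fold change was 0.39. Slc1a4, a carrier of neutral amino acids, had the smallest p of the amino acid lists and hardly varied within a group, with 125, 124, 119.6 and 121 CPM in the siAtf3 libraries and 46.7, 45.6, 42.3 and 45.8 CPM in the siAtf4 libraries. The gap was 2.71-fold (log2 1.44 ± 0.06, adjusted p = 2.8e-17). Slc7a1, the main cationic amino acid carrier, had 154, 171, 156 and 164 CPM in the siAtf3 libraries and 54.3, 54.8, 42.3 and 52.9 CPM in the siAtf4 libraries (log2 1.66 ± 0.07). Slc7a5 and Slc3a2, the light and heavy chain of the large neutral amino acid exchanger, averaged 136 CPM in siAtf3 and 45.9 CPM in siAtf4 and 347 CPM in siAtf3 and 238 CPM in siAtf4 (log2 1.56 and 0.54). Slc7a3, Slc6a9 and Slc7a11, which carry cationic amino acids, glycine and cystine, were higher by 1.56, 1.76 and 1.05 on the log2 scale. Slc6a15, a neuronal carrier of branched-chain amino acids, was lower in siAtf3 (54.8 ± 4.58 CPM in siAtf3 and 84.1 ± 5.69 CPM in siAtf4, log2 -0.62), as was the lysosomal carrier Slc36a1 (-0.35). Slc1a1 (log2 fold change -0.29), Slc7a2 (-0.07) and Slc7a8 (0.23) did not pass.

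The promoters of Slc1a4, Slc7a1 and Chac1, the 3 genes of the amino acid lists with the smallest p, are shown because the members of those lists differed together. They are the 300 bases from 250 before to 50 after the start site in RefSeq's promoter table for GRCm38.p6, an older build than the GRCm39 of the counts. Capitals mark matches on either strand to TGATGNAA, the core of the element that Atf4 and C/EBP factors bind as a pair, to the cAMP-responsive element TGACGTCA, or to the AP-1 element TGANTCA. None of these motifs overlaps another in the windows shown.
Slc1a4 (chr11:20332664-20332963, minus strand): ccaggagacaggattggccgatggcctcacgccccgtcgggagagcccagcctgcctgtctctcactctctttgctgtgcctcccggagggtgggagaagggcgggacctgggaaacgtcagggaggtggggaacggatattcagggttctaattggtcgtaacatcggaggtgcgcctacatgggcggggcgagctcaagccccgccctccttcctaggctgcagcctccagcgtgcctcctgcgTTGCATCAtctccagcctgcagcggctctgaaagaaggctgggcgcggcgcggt
Slc7a1 (chr5:148399855-148400154, minus strand): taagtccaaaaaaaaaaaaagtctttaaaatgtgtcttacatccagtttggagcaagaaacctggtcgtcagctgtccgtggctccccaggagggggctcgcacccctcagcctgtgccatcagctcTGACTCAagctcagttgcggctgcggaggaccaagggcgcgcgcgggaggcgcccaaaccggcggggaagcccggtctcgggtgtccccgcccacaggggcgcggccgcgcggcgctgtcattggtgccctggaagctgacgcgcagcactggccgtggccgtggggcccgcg
Chac1 (chr2:119350992-119351291, plus strand): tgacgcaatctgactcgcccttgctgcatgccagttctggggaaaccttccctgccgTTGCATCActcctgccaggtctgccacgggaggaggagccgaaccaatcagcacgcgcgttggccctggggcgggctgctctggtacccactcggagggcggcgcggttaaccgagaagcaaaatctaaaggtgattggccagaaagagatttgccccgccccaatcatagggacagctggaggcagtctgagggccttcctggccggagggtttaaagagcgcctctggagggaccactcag
In Slc1a4 the match TTGCATCA began 4 bases before the start site, and in Chac1 the same letters began 193 bases before it. The first of the 2 Slc7a1 promoters held TGACTCA 123 bases before the start site, and the second held no match and is not shown. Among all 32851 promoters of the table, 3.97% held TGATGNAA, 1.79% TGACGTCA and 7.81% TGANTCA. Promoters could be matched for 74.3% of the genes tested, below the 80% set as a minimum, so a comparison of motif shares between higher and lower genes would be void and is not given. A match is a description of letters and does not show that a factor binds there.

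**Figure D2:**
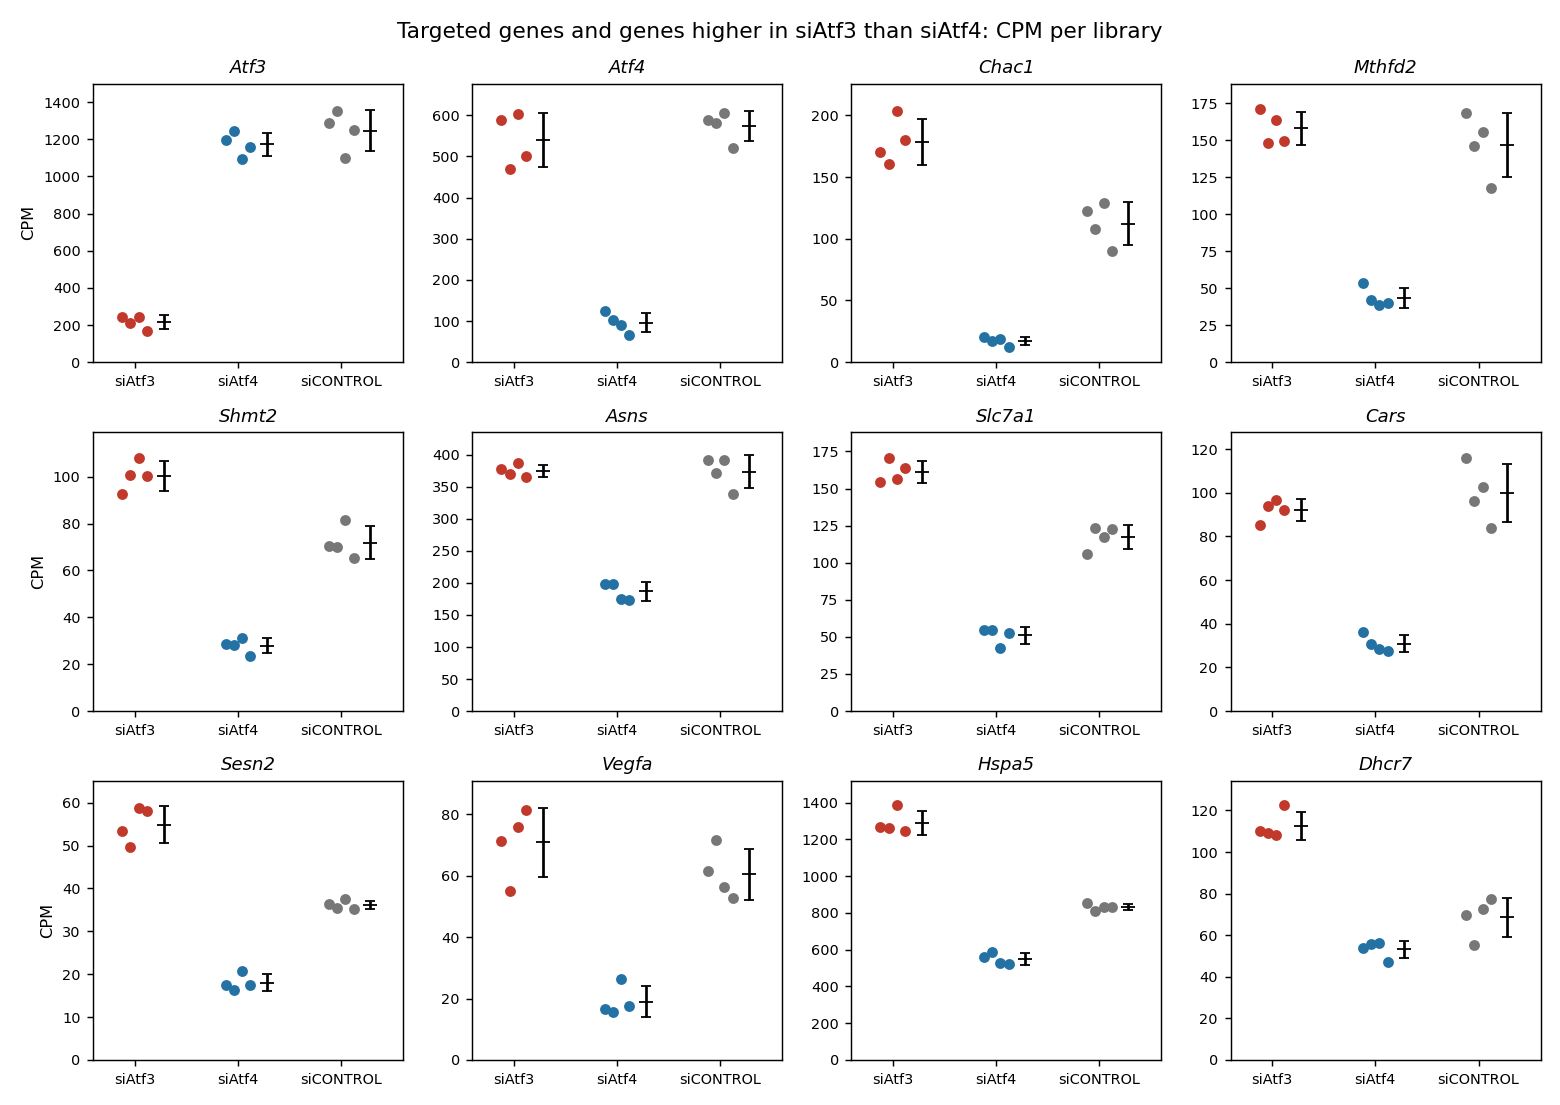
CPM in each library (points) with mean ± SD (bars) for the targeted genes Atf3 and Atf4 and 10 genes higher in siAtf3 than in siAtf4, with siCONTROL for level. Apart from Atf3, every siAtf3 library lies above every siAtf4 library in each panel; for Asns, Cars and Mthfd2 the siCONTROL libraries lie around the siAtf3 level, and for Chac1, Sesn2 and Hspa5 between the groups.

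Most enzymes that charge tRNAs in the cytosol were higher in siAtf3. Of 21 cytosolic tRNA synthetases, 15 were higher (71.4%, against 10.7% of all genes tested) and 0 lower (1 unadjusted, 0 by DESeq2 and limma-voom). The median log2 fold change was 0.77. Cars, for cysteine, showed the largest difference, at 85.3, 94.1, 96.8 and 92.1 CPM in the siAtf3 libraries and 36.2, 30.9, 28.3 and 27.5 CPM in the siAtf4 libraries (log2 1.58 ± 0.10, adjusted p = 2.38e-13). Tars, Yars, Lars and Sars, for threonine, tyrosine, leucine and serine, were higher by 1.25, 1.08, 1.07 and 1.04 on the log2 scale. Nars, for asparagine, had 926 to 961 CPM in siAtf3 and 448 to 537 CPM in siAtf4, and Gars, for glycine, 578 to 634 CPM in siAtf3 and 352 to 402 CPM in siAtf4. The 6 that did not pass were Kars (log2 fold change -0.15), Tarsl2 (-0.10), Dars (0.05), Farsa (0.11), Hars (0.11) and Qars (0.21).

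Of 17 mitochondrial synthetases tested, 4 were higher (23.5%, against 10.7% of all genes tested) and 0 lower (also 0 unadjusted, by DESeq2 and by limma-voom). The median log2 fold change was 0.23. Among them Rars2, Tars2 and Iars2 were higher by 0.68, 0.43 and 0.23 on the log2 scale. The count fell to 2 without siAtf3 replicate 1 or 2. Iars2 lost its call in 10 of the 16 alternatives, with adjusted p up to 0.147, 6 of them leaving out siAtf3 replicate 1, 2 or 4 or siAtf4 replicate 1, 2 or 4. Rars2 had an adjusted p of 0.0716 without siAtf3 replicate 1, and Tars2 of 0.0709 without siAtf3 replicate 2.

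In a list of regulators and other genes of the integrated stress response most were higher in siAtf3, 15 of 24 (62.5%, against 10.7% of all genes tested). Eif2b3 was the 1 lower (4.17%, against 12.1%), and the median log2 fold change was 0.45. Some members are not regulators, such as the receptor Vldlr and the enzymes Chac1 and Nars, which are also in their own lists. Sesn2, which restrains mTORC1 when leucine is low, had 53.4, 49.6, 58.7 and 58 CPM in the siAtf3 libraries and 17.4, 16.3, 20.7 and 17.6 CPM in the siAtf4 libraries (log2 1.61 ± 0.08, adjusted p = 1.13e-14). Trib3, a pseudokinase that restrains Atf4, had 31.9, 35.3, 37.6 and 34 CPM in the siAtf3 libraries and 16.1, 13.4, 12.5 and 10.7 CPM in the siAtf4 libraries (log2 1.39 ± 0.15). Nupr1, a small stress-induced nuclear protein, averaged 29.6 ± 5.53 CPM in siAtf3 and 4.37 ± 1.21 CPM in siAtf4 (log2 2.74). Eif4ebp1 and Ddit4, brakes on translation and on mTORC1, were higher by 1.14 and 0.82 on the log2 scale. The eIF2α phosphatase subunits Ppp1r15b and Ppp1r15a were higher by 0.82 and 0.43 on the log2 scale, the second without a call when siAtf3 replicate 1 or siAtf4 replicate 4 was left out (adjusted p = 0.0504 and 0.0697). Of the eIF2α kinases, Eif2ak3, which senses ER stress, averaged 74.9 ± 2.71 CPM in siAtf3 and 51.5 ± 0.32 CPM in siAtf4 (log2 0.54), Eif2ak1 was higher (log2 0.34), and Eif2ak4, the sensor of uncharged tRNA, did not pass (log2 0.15). Vldlr, a lipoprotein receptor, averaged 38.7 CPM in siAtf3 and 10.5 CPM in siAtf4 (log2 1.88).

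Of 8 secreted stress factors 5 were higher (62.5%, against 10.7% of all genes tested) and 1 lower (12.5%, against 12.1%). The median log2 fold change was 1.79. Beside Fgf21, Adm2 and Stc2, Vegfa, the angiogenic factor, had 71.4, 55, 75.9 and 81.4 CPM in the siAtf3 libraries and 16.4, 15.5, 26.5 and 17.4 CPM in the siAtf4 libraries. The groups did not overlap (log2 1.91 ± 0.16, adjusted p = 3.01e-10). Gdf15, a hormone released by stressed tissue, averaged 28.7 ± 4.93 CPM in siAtf3 and 9.01 ± 1.76 CPM in siAtf4 (log2 1.67 ± 0.18). Pthlh, the parathyroid hormone-related peptide, was lower in siAtf3, at 4.04, 2.39, 3.21 and 3.92 CPM against 7.62, 12.6, 9.86 and 14.6 CPM in siAtf4 (log2 -1.72 ± 0.38, adjusted p = 0.000902).

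In the ER list 12 of 24 chaperone, folding and degradation genes were higher (50%, against 10.7% of all genes tested). Only 1 was lower (4.17%, against 12.1%), and the median log2 fold change was 0.19. Hspa5, the chaperone BiP, had 1269, 1264, 1387 and 1245 CPM in the siAtf3 libraries and 561, 586, 526 and 523 CPM in the siAtf4 libraries, with siCONTROL between them at 809.7 to 853 CPM (log2 1.23 ± 0.07, adjusted p = 1.2e-13). Herpud1, of the ER degradation machinery, averaged 136 ± 12.1 CPM in siAtf3 and 44.1 ± 8.65 CPM in siAtf4, and Dnajb9, a co-chaperone of BiP, 79.2 ± 8.4 CPM in siAtf3 and 40.3 ± 4.12 CPM in siAtf4 (log2 1.62 and 0.97). Xbp1, the factor spliced by Ire1, was higher by 0.50 on the log2 scale, and Derl1, of ER degradation, by 0.74. Edem1, of the same machinery, was called higher (log2 0.89) although its groups overlapped, at 22.1 to 54.7 CPM in siAtf3 and 15.7 to 27.7 CPM in siAtf4, and its adjusted p was 0.0754 in the 8 libraries alone with the replicate block. Several standard chaperones did not pass, among them Pdia6 (log2 fold change 0.06), Hyou1 (0.05) and Manf (-0.05). Sdf2l1, an ER protein that works with BiP, was lower (66.4 ± 5.8 CPM in siAtf3 and 92.6 ± 7.07 CPM in siAtf4, log2 -0.48).

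Cholesterol genes were higher in small steps. Of 24 genes of cholesterol synthesis and uptake, 17 were higher (70.8%, against 10.7% of all genes tested) and 1 was lower (4.17%, against 12.1%). The median log2 fold change was 0.49. Dhcr7, the last enzyme of the pathway to cholesterol, had 110.0, 109, 108 and 123 CPM in the siAtf3 libraries and 53.8, 55.6, 56.3 and 47.2 CPM in the siAtf4 libraries (log2 1.08 ± 0.13, adjusted p = 1.29e-07). Lss, lanosterol synthase, averaged 37.5 ± 5.82 CPM in siAtf3 and 16.8 ± 4.24 CPM in siAtf4 (log2 1.16). Hmgcs1, an early enzyme of the pathway, averaged 399 CPM in siAtf3 and 275 CPM in siAtf4 (log2 0.54). Insig1, which holds the sterol sensor in the ER, was lower (89.3, 103, 109 and 95.9 CPM in siAtf3 and 142, 139, 160.0 and 144 CPM in siAtf4, log2 -0.56 ± 0.07, adjusted p = 6.92e-07).

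Of 16 antioxidant genes under Nrf2, 8 were higher (50%, against 10.7% of all genes tested) and 1 was lower (6.25%, against 12.1%). Slc7a11, described above with the amino acid transporters, is 1 of the 8. The median log2 fold change was 0.39. Hmox1, heme oxygenase, had 353, 267, 343 and 312 CPM in the siAtf3 libraries and 168, 161, 177 and 159 CPM in the siAtf4 libraries (log2 0.94 ± 0.09). Nfe2l2, which encodes Nrf2 itself, averaged 97.2 ± 3.02 CPM in siAtf3 and 60.4 ± 4.3 CPM in siAtf4 (log2 0.69). Ftl1, the ferritin light chain, was lower by a small step (log2 -0.33). Nqo1, a quinone reductase, was higher by 0.76 on the log2 scale, with an adjusted p of 0.0818 to 0.0992 without siAtf3 replicate 3 or 4 or siAtf4 replicate 1 or 2.

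**Figure D3:**
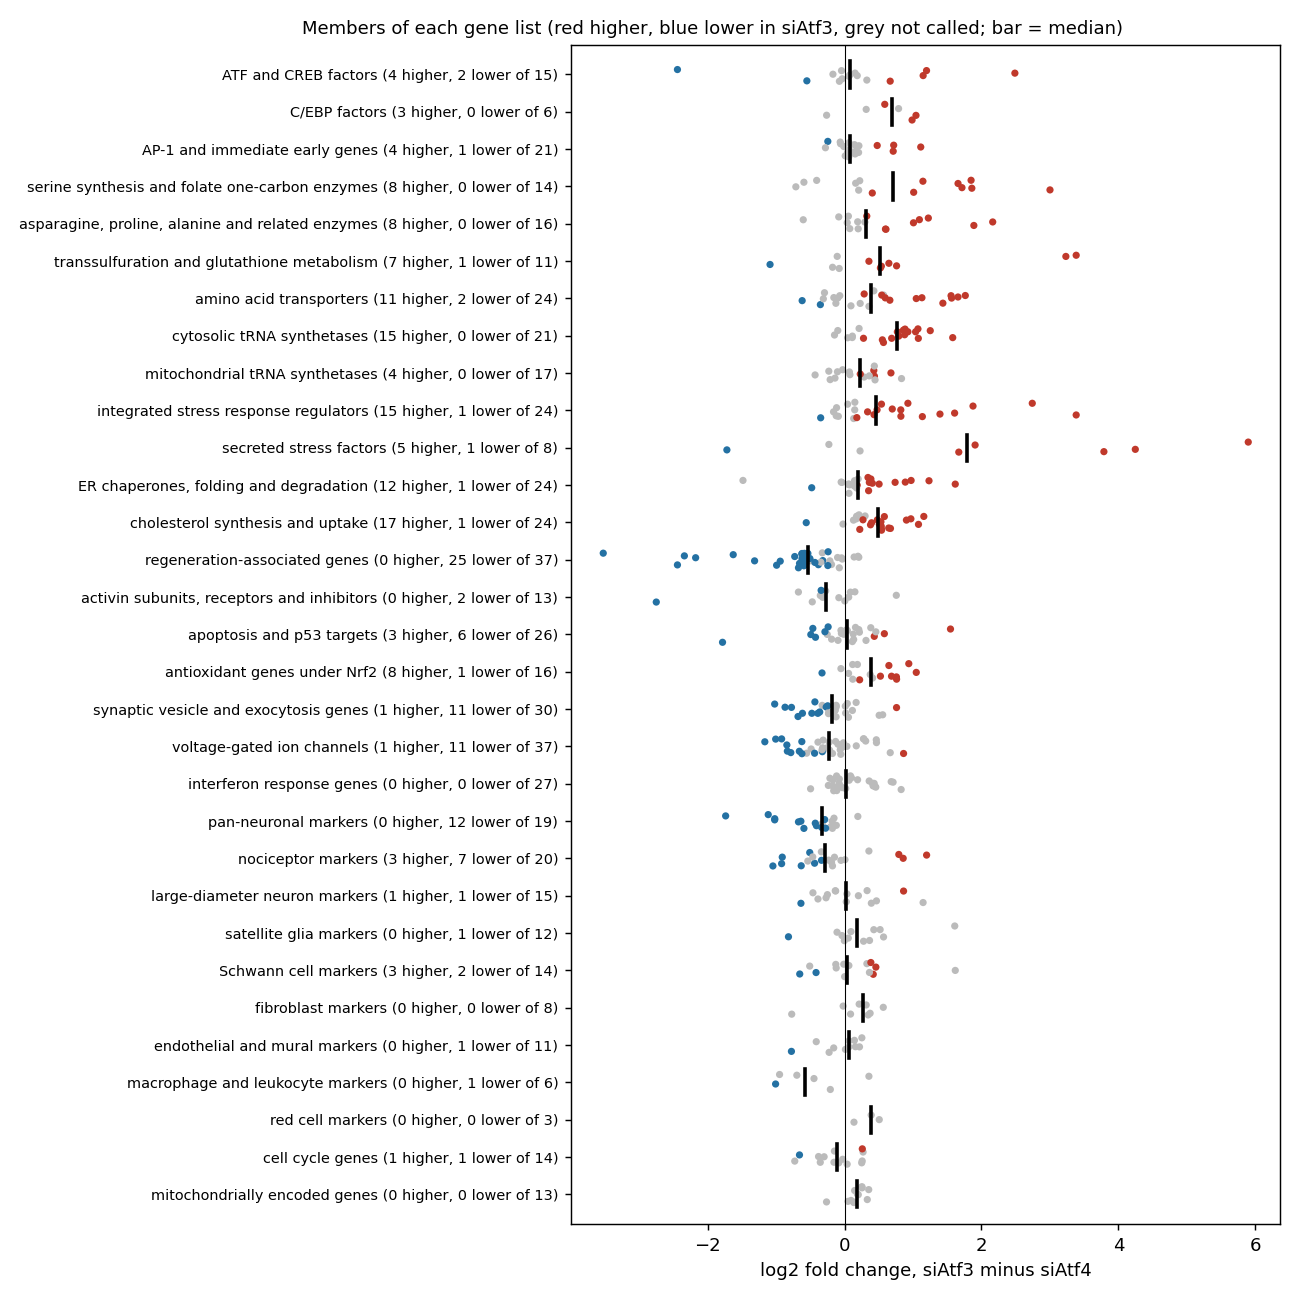
Log2 fold change (siAtf3 minus siAtf4) of every tested member of the 31 gene lists, 1 point per gene, with the list median as a black bar. These lists were chosen with earlier results of these data known. The lists of amino acid, tRNA synthetase, stress and cholesterol genes lie to the right of 0, with up to 17 members called higher. The regeneration and pan-neuronal lists lie to the left, with 25 of 37 (the siRNA target Atf3 among them) and 12 of 19 members called lower.

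Genes known to be induced in axotomised sensory neurons were lower in siAtf3. Of 37 regeneration-associated genes tested, 25 were lower (67.6%, against 12.1% of all genes tested) and 0 higher, with a median log2 fold change of -0.54. Atf3, lowered by its own siRNA, is 1 of these 25. At an unadjusted p under 0.05 there was 1 higher member, with 0 by DESeq2 and by limma-voom. With column totals the counts were 23 lower and 1 higher. Sprr1a, a small proline-rich protein induced by axotomy, had 158, 183, 115 and 162 CPM in the siAtf3 libraries and 523, 486, 472 and 427 CPM in the siAtf4 libraries. Every siAtf3 library lay below every siAtf4 library (log2 -1.63 ± 0.16, adjusted p = 5.7e-09), and siCONTROL lay between them at 272 to 389 CPM. Anxa1, a phospholipid-binding annexin, had 36, 22.7, 33.4 and 33.1 CPM in siAtf3 libraries, 139, 136, 203 and 154 CPM in siAtf4 libraries and 51.5 to 68.4 CPM in siCONTROL, so that both knockdowns lay outside the siCONTROL range on opposite sides (log2 -2.34 ± 0.20 between them). Arg1, arginase 1, averaged 1.61 CPM in siAtf3 and 7.36 CPM in siAtf4 (log2 -2.17 ± 0.39).

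The growth cone protein Gap43 had 686, 649, 546 and 586 CPM in the siAtf3 libraries and 1060.4, 970.4, 939 and 963 CPM in the siAtf4 libraries, a 1.59-fold gap (log2 -0.67 ± 0.09, adjusted p = 2.18e-06). The neuropeptide Gal showed more spread, at 212, 184, 115 and 122 CPM in siAtf3 and 478, 483, 299.7 and 309 CPM in siAtf4, where replicates 1 and 2 exceeded 3 and 4 in both groups (log2 -1.31 ± 0.26). Adcyap1, the neuropeptide PACAP, averaged 978 ± 88 CPM in siAtf3 and 1505 ± 214 CPM in siAtf4 (log2 -0.62). Itga7, an integrin subunit, and Tnfrsf12a, the Fn14 receptor, were lower too (log2 fold changes -0.94 and -0.59). The transcription factors Sox11 (log2 fold change -0.66), Smad1 (-0.59), Klf6 (-0.56) and Klf7 (-0.43) were lower, as were Stmn2, a tubulin regulator (-0.54), and Cckbr, a cholecystokinin receptor (-0.99). Members that did not pass included Npy (log2 fold change -0.49), Socs3 (-0.32), Ecel1 (-0.04), Gpr151 (0.20) and Nts (0.21).

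Promoters of Atf3 and Sprr1a, which with Anxa1 had the smallest p of the regeneration list, are shown with the same motifs in capitals. Atf3 is the siRNA target, so its small p was set by the design and says nothing about its promoter.
Atf3 (chr1:191183284-191183583, minus strand): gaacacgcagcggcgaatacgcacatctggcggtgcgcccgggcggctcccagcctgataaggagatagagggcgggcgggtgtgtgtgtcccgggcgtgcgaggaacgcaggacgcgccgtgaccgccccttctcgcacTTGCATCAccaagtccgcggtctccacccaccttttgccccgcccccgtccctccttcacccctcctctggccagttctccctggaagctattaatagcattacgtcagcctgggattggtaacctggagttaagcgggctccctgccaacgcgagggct
Sprr1a (chr3:92485832-92486131, minus strand): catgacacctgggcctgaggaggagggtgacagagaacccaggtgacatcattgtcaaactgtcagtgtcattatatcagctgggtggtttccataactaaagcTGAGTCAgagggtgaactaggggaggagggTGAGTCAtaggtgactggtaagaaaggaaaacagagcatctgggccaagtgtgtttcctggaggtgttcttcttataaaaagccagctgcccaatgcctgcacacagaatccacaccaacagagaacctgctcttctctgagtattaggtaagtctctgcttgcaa
Atf3 held TTGCATCA, a match to TGATGNAA on the other strand, 110 bases before its start site. Sprr1a held the AP-1 letters TGAGTCA at 146 and again at 116 bases before its start site. The Anxa1 promoter held none of the 3 motifs in this window and is not shown.

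Of 13 activin subunits, receptors and inhibitors, Inhba and Smad2 were lower (15.4%, against 12.1% of all genes tested) and 0 were higher (1 unadjusted, 0 by DESeq2 and limma-voom). Leaving out 1 library gave 1 to 3 lower, with 1 lower without siAtf3 replicate 1 or 2 or siAtf4 replicate 3. The subunit Inhbb (log2 fold change -0.35), the inhibitor Fst (-0.67) and the receptors Acvr1b (0.15) and Acvr2a (-0.28) did not pass. Smad2, which carries the activin signal, had a log2 fold change of -0.34, and its adjusted p of 0.0208 rose above the threshold without siAtf3 replicate 1, 2 or 4 or siAtf4 replicate 3 (0.0562 to 0.0679), and with column totals (0.0708).

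Of 26 genes of apoptosis and p53, 3 were higher (11.5%, against 10.7% of all genes tested) and 6 lower (23.1%, against 12.1%), with a median log2 fold change of 0.04. Pmaip1, the BH3-only protein Noxa, had 34.6, 29.1, 21.9 and 39.2 CPM in the siAtf3 libraries and 114, 113, 85.9 and 117 CPM in the siAtf4 libraries (log2 -1.78 ± 0.17, adjusted p = 3.88e-09). The siCONTROL libraries held 30.6 to 41.1 CPM, overlapping siAtf3 and far below siAtf4. Hrk, another BH3-only gene, went the opposite way, with 4.45, 4.93, 5.47 and 8.7 CPM in the siAtf3 libraries and 2.03, 2.33, 2.05 and 1.6 CPM in the siAtf4 libraries (log2 1.55 ± 0.23). The p53 targets Aen (log2 fold change -0.49), Zmat3 (-0.46), Ccng1 (-0.42) and Phlda3 (-0.29) were lower, while Cdkn1a (0.13), Bax (0.16) and Mdm2 (-0.25) did not pass.

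**Figure D4:**
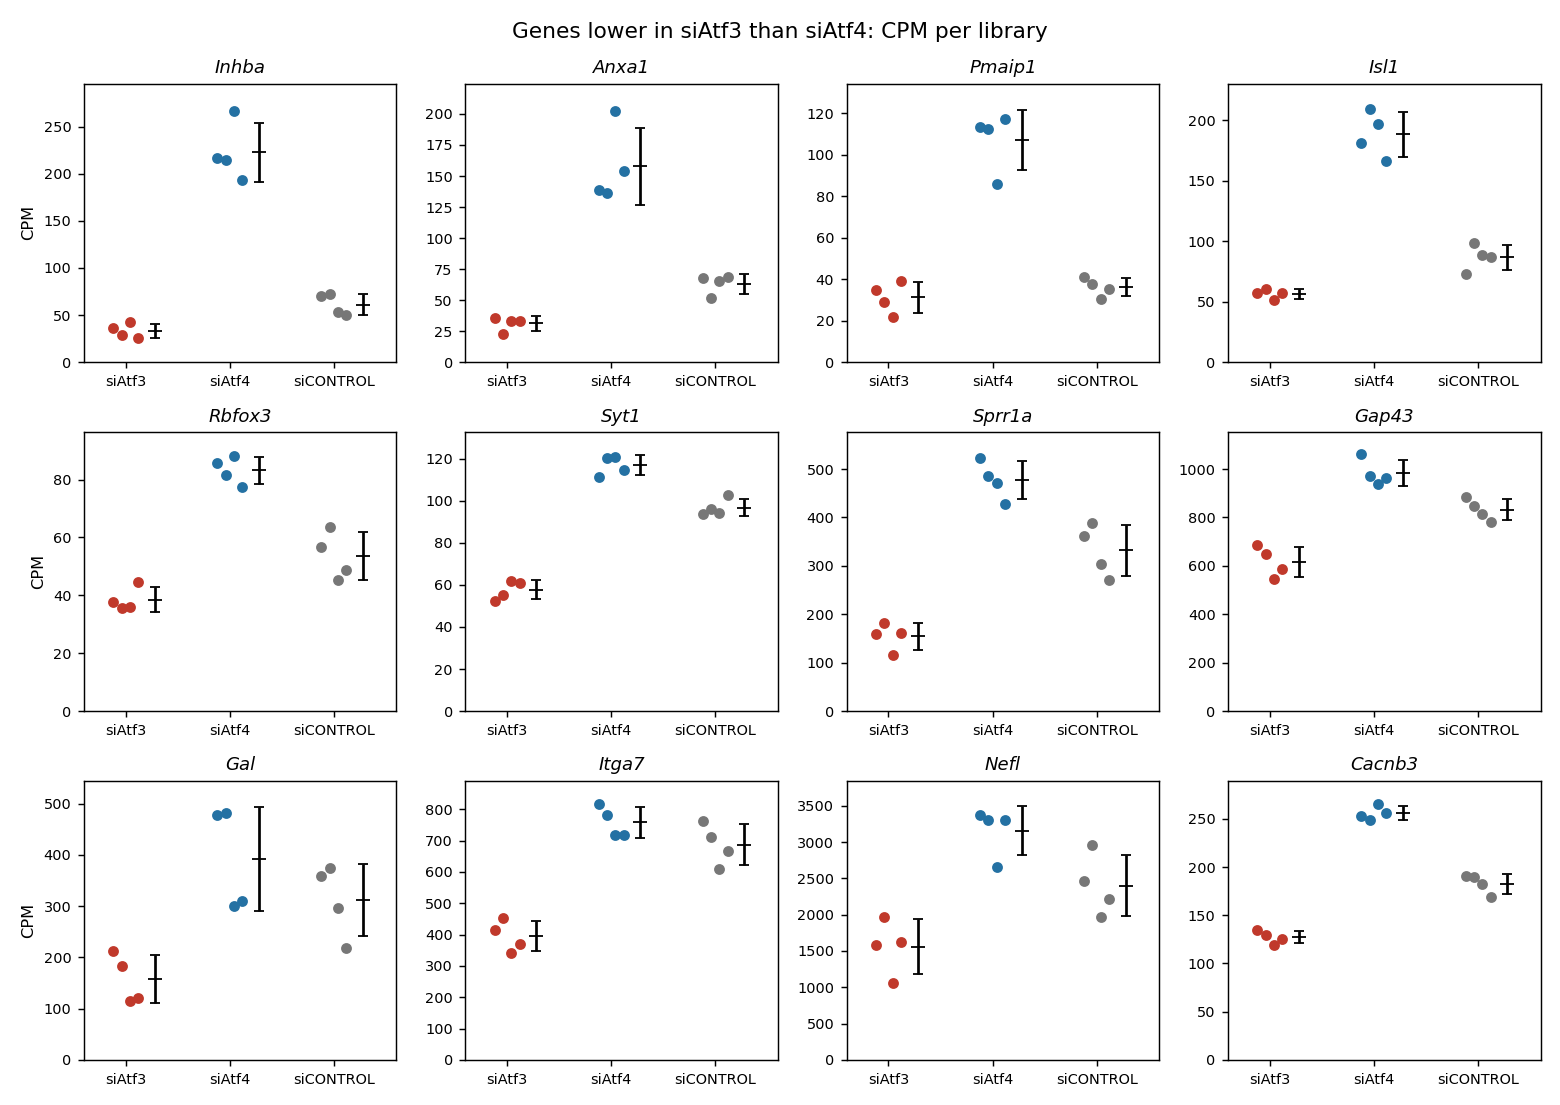
CPM in each library (points) with mean ± SD (bars) for 12 genes lower in siAtf3 than in siAtf4, with siCONTROL for level. Every siAtf3 library lies below every siAtf4 library in each panel; for Inhba, Anxa1, Pmaip1 and Isl1 the siCONTROL libraries lie nearer siAtf3, and for Itga7 and Gap43 nearer siAtf4.

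Genes that mark neurons in general were lower in siAtf3 than in siAtf4. Of 19 pan-neuronal markers, 12 were lower (63.2%, against 12.1% of all genes tested) and 0 higher (also 0 unadjusted, by DESeq2 and by limma-voom). The median log2 fold change was -0.33. Isl1, a homeobox factor of sensory neurons, had 57.4, 60.7, 51.1 and 56.8 CPM in the siAtf3 libraries and 181, 209, 197 and 166 CPM in the siAtf4 libraries (log2 -1.74 ± 0.14, adjusted p = 7.38e-11). Rbfox3, which encodes NeuN, had 37.6, 35.5, 35.9 and 44.7 CPM in the siAtf3 libraries and 85.7, 81.6, 88.1 and 77.4 CPM in the siAtf4 libraries (log2 -1.11 ± 0.09). Nefl, the neurofilament light chain, averaged 1559 ± 378 CPM in siAtf3 and 3158 ± 339.5 CPM in siAtf4, and Elavl4, a neuronal RNA-binding protein, 125 ± 16.7 CPM in siAtf3 and 195 ± 16.7 CPM in siAtf4 (log2 -1.02 and -0.64). The siCONTROL means of Isl1, Rbfox3 and Nefl (86.7, 53.5 and 2401 CPM) lay between the groups, and that of Elavl4 (190 CPM) near siAtf4. Markers that did not pass were Uchl1 (log2 fold change -0.15), Map2 (-0.12), Thy1 (-0.18), Nefm (-0.18), Elavl3 (-0.20), Snap25 (-0.33) and Eno2 (0.19).

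The summed level of the 19 pan-neuronal markers was 13249 to 16822 CPM in siAtf3 and 17701 to 20230 CPM in siAtf4, with siCONTROL at 16310 to 20709 CPM. Nefl had the widest gap of these markers in CPM (1559 CPM in siAtf3 and 3158 CPM in siAtf4). Gap43, also described above with the regeneration genes, is part of this sum. The Schwann cell list moved the same way, at 1277 to 1572 CPM in siAtf3 and 1732 to 1988 CPM in siAtf4, with most of its sum in Pmp22 and S100b. The satellite glia list summed to 624 to 799 CPM in siAtf3 and 752 to 886 CPM in siAtf4, and the fibroblast list to 139.7 to 246 CPM in siAtf3 and 174 to 213 CPM in siAtf4. The endothelial and mural list summed to 225 to 301 CPM in siAtf3 and 242 to 298 CPM in siAtf4, so the groups overlapped in these 3 lists. Macrophage and leukocyte markers summed to 42.9 to 59.8 CPM in siAtf3 and 45.9 to 73.0 CPM in siAtf4, with C1qa and Cd3e at 0 in both groups. In bulk RNA a change in the share of neurons and a change in these transcripts per neuron, in either group, cannot be told apart. The part of cell numbers in the regeneration, synaptic and channel results was not tested.

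**Figure D5:**
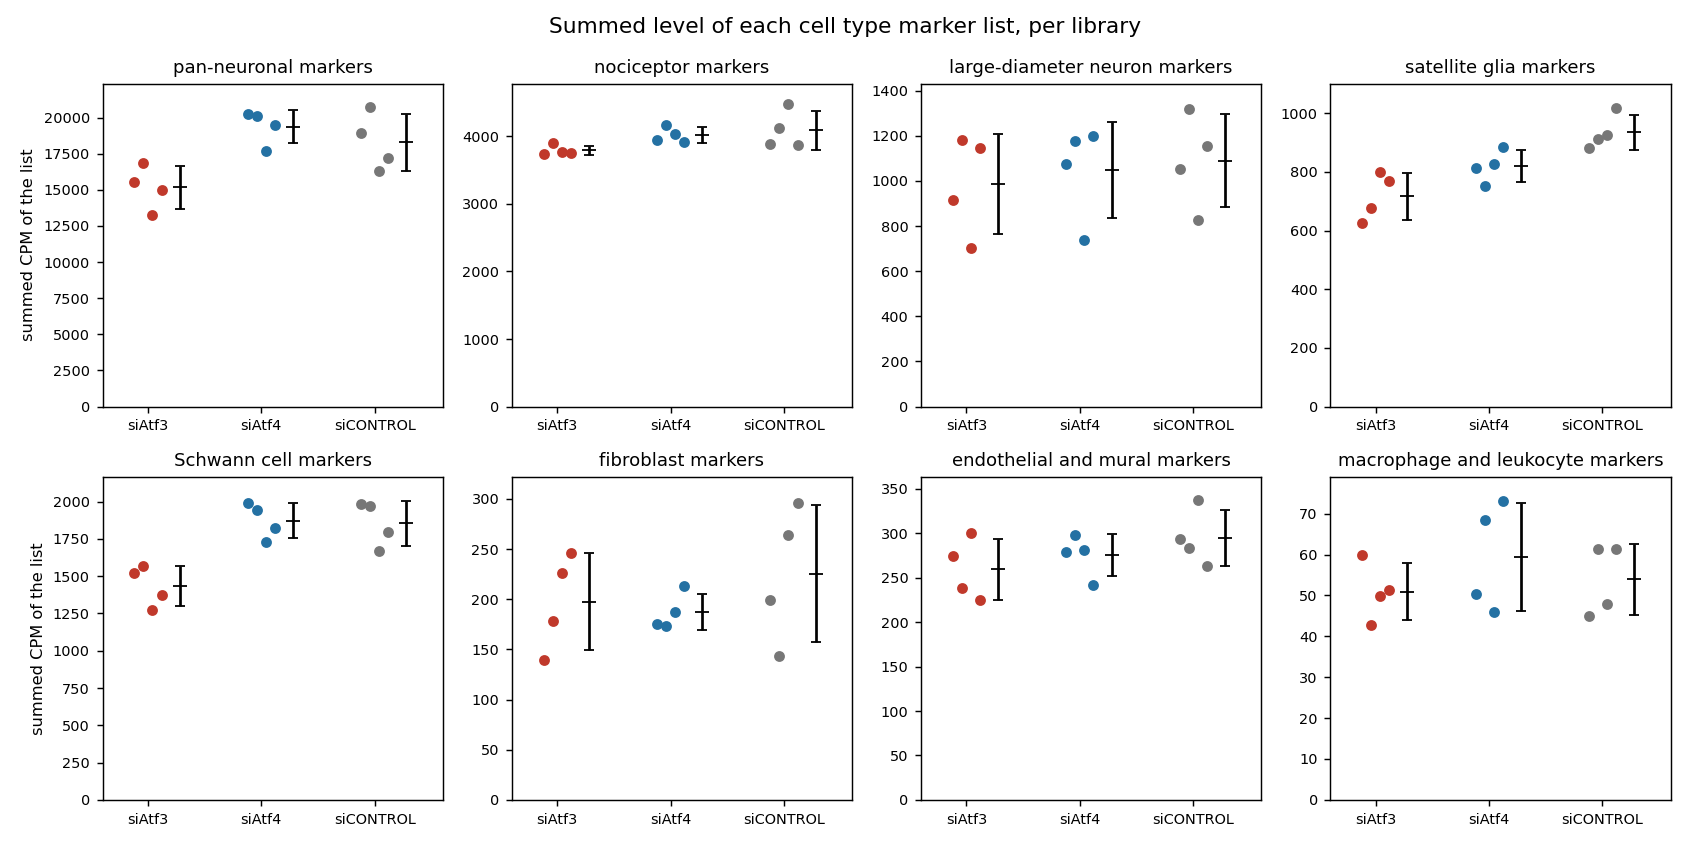
Summed CPM of each cell type marker list per library (points) with mean ± SD (bars). The pan-neuronal sums of siAtf3 (13249 to 16822) lie below those of siAtf4 (17701 to 20230), as do the Schwann cell sums; the satellite glia, fibroblast, endothelial and macrophage sums overlap.

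Markers of sensory neuron subtypes held members called in both directions, not all in larger shares than over all genes. Of 20 nociceptor markers 7 were lower in siAtf3 (35%, against 12.1% of all genes tested) and 3 higher (15%, against 10.7%). The median log2 fold change was -0.28. Prdm12, a factor of nociceptor identity, averaged 28.1 ± 5.22 CPM in siAtf3 and 58.1 ± 6.42 CPM in siAtf4, and Ret, a receptor for glial-derived growth factors, 354 ± 43.4 CPM in siAtf3 and 665 ± 21.1 CPM in siAtf4 (log2 -1.05 and -0.91). The peptide gene Tac1, which encodes substance P, ran against them at 194, 184, 249 and 197 CPM in the siAtf3 libraries and 62.6, 95.8, 114 and 87.2 CPM in the siAtf4 libraries (log2 1.20 ± 0.18, adjusted p = 4.63e-06). Calcb, a calcitonin gene-related peptide, and P2rx3, an ATP-gated channel, were also higher (556 CPM in siAtf3 and 321 CPM in siAtf4; 439 CPM in siAtf3 and 242 CPM in siAtf4). For P2rx3 the siCONTROL mean was 482 CPM, within the siAtf3 range. Calca, the other form of the peptide, did not pass (log2 -0.19). Of 15 large-diameter neuron markers, Kcna2 was higher (log2 0.86) and Piezo2, the touch channel, lower (73.5 ± 5.45 CPM in siAtf3 and 114 ± 7.43 CPM in siAtf4, log2 -0.64). Each is 6.67% of that list, below the 10.7% higher and 12.1% lower of all genes tested.

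Synaptic vesicle and exocytosis genes were lower in 11 of 30 cases (36.7%, against 12.1% of all genes tested) and higher in 1 (3.33%, against 10.7%). The median log2 fold change was -0.18. Syt1, the calcium sensor of vesicle release and also a pan-neuronal marker here, had 52.6, 55.2, 62.1 and 60.7 CPM in the siAtf3 libraries and 111, 121, 121 and 115 CPM in the siAtf4 libraries (log2 -1.02 ± 0.08, adjusted p = 7.84e-11). Slc17a6, the vesicular glutamate transporter of these neurons, had 227, 245, 219 and 219 CPM in the siAtf3 libraries and 405, 386, 371 and 395 CPM in the siAtf4 libraries (log2 -0.77 ± 0.06). Syt9, of the same family as Syt1, averaged 56.5 CPM in siAtf3 and 103 CPM in siAtf4 (log2 -0.87). The siCONTROL means of Syt1, Slc17a6 and Syt9 (96.7, 300 and 76.4 CPM) lay between the groups. Scg2, a granin of dense-core vesicles, was the exception that was higher, at 944, 881, 963 and 849.9 CPM in siAtf3 and 559, 589.5, 534 and 466 CPM in siAtf4 (log2 0.76 ± 0.09). Syp (log2 fold change -0.12), Stx1a (0.06) and Sv2a (0.04) did not pass.

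Of 37 voltage-gated ion channel genes, 11 were lower in siAtf3 (29.7%, against 12.1% of all genes tested) and 1 higher (2.7%, against 10.7%). Scn9a and Scn10a are also nociceptor markers here, and Kcna2 a large-diameter neuron marker. The median log2 fold change was -0.22. Cacnb3, an auxiliary β subunit of calcium channels, had 135, 129.6, 119.6 and 125 CPM in the siAtf3 libraries and 253, 249, 265 and 256 CPM in the siAtf4 libraries (log2 -1.01 ± 0.07, adjusted p = 1.02e-12). Cacnb4 (log2 fold change -1.16), Cacna1b (-0.83), Cacna1a (-0.78), Cacnb1 (-0.62) and Cacna2d1 (-0.62), of the same channels, were lower too. Scn9a, the sodium channel Nav1.7 of nociceptors, averaged 67.5 ± 3.9 CPM in siAtf3 and 128 ± 6.99 CPM in siAtf4, and Scn10a, Nav1.8, 73.7 ± 8.41 CPM in siAtf3 and 99.7 ± 2.99 CPM in siAtf4 (log2 -0.92 and -0.44). The siCONTROL means of Cacnb3, Scn9a and Scn10a (183, 99.5 and 89.8 CPM) lay between the groups. The potassium channel Kcnd3 was lower (log2 -0.84), and Kcna2 was higher (13.9, 14.5, 12.1 and 14 CPM in the siAtf3 libraries and 5.59, 7.58, 7.39 and 9.41 CPM in the siAtf4 libraries). Scn11a (log2 fold change -0.18), Cacna1c (-0.02) and Cacna1h (-0.55) did not pass.

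Few glial markers were called, and in no single direction. Among 14 Schwann cell markers, 2 were lower (14.3%, against 12.1% of all genes tested) and 3 higher (21.4%, against 10.7%). Pmp22 (log2 fold change -0.65) and Erbb3 (-0.42) were lower and the myelin genes Mbp (0.46) and Cnp (0.38) were among those higher. Erbb3 and Mbp rested on single libraries: Erbb3 reached an adjusted p of 0.0511 to 0.0883 without siAtf3 replicate 1, 3 or 4 or siAtf4 replicate 3 or 4, and Mbp 0.0569 and 0.0678 without siAtf3 replicate 3 or siAtf4 replicate 4. Of 12 satellite glia markers only Glul, glutamine synthetase, passed (175 ± 21.8 CPM in siAtf3 and 309 ± 29 CPM in siAtf4, log2 -0.82 ± 0.11). Called lower were thus 8.33% of the list, against 12.1% of all genes tested. Among 11 endothelial and mural markers only Rgs5 passed, lower in siAtf3 (9.09% of the list, against 12.1% of all genes tested). It averaged 45.4 ± 5.66 CPM in siAtf3 and 77.5 ± 3.99 CPM in siAtf4 (log2 -0.78). Of 6 macrophage and leukocyte markers only Cd14 passed, lower in siAtf3 (16.7% of the list, against 12.1% of all genes tested). It averaged 1.9 CPM in siAtf3 and 3.81 CPM in siAtf4, with adjusted p of 0.0981 and 0.24 without siAtf3 replicate 2 or siAtf4 replicate 4.

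With edgeR 0 of 27 interferon response genes, which respond to foreign RNA, were called, against 22.9% of all genes tested. Their median log2 fold change was 0.02, with 1 at an unadjusted p under 0.05 and 0 by DESeq2 and limma-voom. The same held for 8 fibroblast markers (2 unadjusted), 3 red cell markers (0 unadjusted) and 13 mitochondrially encoded genes (1 unadjusted), with 0 by DESeq2 and limma-voom. Isg15 (log2 fold change 0.36) and Ifit1 (-0.06) were among those that did not pass. The mitochondrially encoded transcripts summed to 30209 to 44427 CPM in siAtf3 and 26263 to 42612 CPM in siAtf4. Of 14 cell cycle genes, Pcna was higher (log2 0.26) and Mcm5 lower (-0.66). Each is 7.14% of the list, below the 10.7% higher and 12.1% lower of all genes tested.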

How the data were processed

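The authors deposited 1 table of expected counts by gene, which hold fractions. The submitters' processing notes name kallisto and GRCm39, without version, annotation or scaling step. All 36 columns of the siRNA table were matched to samples by name, 0 were left unused and 0 pairs were identical.

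Of 34183 genes, 32470 (95%) received a symbol from GENCODE for GRCm38, so no coordinates of genes are given. Values were rounded to whole numbers. The 7 knockdown groups and siCONTROL (32 libraries, 1539198 to 6621566 counts each) were fitted together in edgeR 4.0.16 (R 4.3.3) with filterByExpr by group, TMM scaling and the quasi-likelihood F test. The contrast was siAtf3 minus siAtf4, so the other groups served only the estimate of spread. Levels are TMM-scaled CPM. Scripts were tested on simulated data. Alternatives used DESeq2 1.42.0, limma 3.58.1, other scalings, no filter, the 8 libraries alone, a replicate block and each library left out.

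Genes named were Atf3 and Atf4, then the 14 largest log2 fold changes in each direction among genes past the threshold with no overlap between groups and a mean of at least 5 CPM in 1 group. Up to 4 called members per list followed, with further members where a sentence needed them, and some genes are not reported here. The members and the 31 gene lists were chosen with earlier results of these data known. The libraries of synthetic mRNA and of time 0 were not used.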

Additional observations from a re-analysis of the deposited data

Results flagged for a closer look

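Within a group of 4 libraries, 1 library stood apart from the other 3 in 24 of 322 groups examined, from 161 of the named genes in both knockdowns. Its gap to the nearest other library, as a share of the group's range, passed Dixon's limit at the 95% level. Chance gives about 5% of groups. All values are CPM. The gene kept its call when the library concerned was left out in each of these cases.

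The siAtf4 library of replicate 3 accounted for 6 of them. It was high for Csrp3 (12.7, others 6.26 to 6.75) and Vegfa (26.5, others 15.5 to 17.4). It was low for Slc7a1 (42.3, others 52.9 to 54.8), Pmaip1 (85.9, others 112.7 to 117), Nefl (2651, others 3299 to 3372) and Star (37.8, others 56.0 to 57.9).

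Replicate 4 of siAtf4 was high for Prr32 (5.86, others up to 2.37) and low for Slc7a5 (39.3, others 47.5 to 48.6), Scn10a (95.2, others 100.8 to 101.4) and Pck2 (21.3, others 30.3 to 31.9). Replicate 2 of siAtf4 was low for Htr2b (4.47, others 6.43 to 6.78) and high for Lce1a2 (12.2, others 2.88 to 4.26) and Lss (23.1, others 14.2 to 15.6). Replicate 1 of siAtf4 held the only Trdv1 signal of its group (1.52, others 0).

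In siAtf3, replicate 1 was alone above 0 for Lce6a (1.21) and Lce1a2 (1.415) and high for Star (218, others 188 to 189). Replicate 2 was alone above 0 for Sprr2i (1.43) and low for Nupr1 (21.3, others 31.5 to 32.9). Replicate 3 was high for Hspa5 (1387, others 1245 to 1269) and Pck2 (119, others 86.0 to 90.5). Replicate 4 was high for Dhcr7 (123, others 108.3 to 110) and Mmp19 (28.8, others 24.0 to 24.7) and low for Eprs (204, others 213.7 to 214.3).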

How the results depend on the processing

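Of the genes named in the text, 161 were followed through the alternatives, and the calls of the others were not checked singly. No alternative reversed any of the 161 or took a count of calls over all genes beyond 1.5 times its value. Over the 16 alternatives, 143 of the 161 kept both call and direction. In at least 1 alternative 17 lost their call, and Cebpg gained it. Leaving out 1 library gave 1341 to 1408 genes higher and 1562 to 1617 lower in siAtf3, 276 to 292 and 319 to 344 at 2-fold, and log2 fold changes of -2.51 to -2.34 for Atf3 and 2.35 to 2.64 for Atf4. DESeq2 called 1541 higher and 1838 lower, limma-voom 1763 and 1939, the 8 libraries alone 1584 and 1789, and no filter 1399 and 1568. Of the 3401 genes called, DESeq2 also called 3255 and column totals 3076, all with the same sign.

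The labels give both groups replicate numbers 1 to 4, but deviations from the group means correlated at only 0.0478 to 0.0914 between same-numbered libraries, so the numbers were not taken to pair them. Each library correlated best with its own number, a hint from the data. With the replicate block 1863 genes were higher and 2086 lower, and in the 8 libraries alone with the block 1641 and 1905. Differences in genes with few counts are the least certain, since depth limits them, and intervals cover these libraries only. The cause of each changed call was not tested.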

Other observations

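Some of the most clearly separated genes fall outside the lists and were picked after their values were seen. Rgs4, a brake on G protein signalling, had 363, 345, 334 and 321 CPM in the siAtf3 libraries and 1167, 1102, 1335 and 1173 CPM in the siAtf4 libraries (log2 fold change -1.81 ± 0.07, adjusted p = 2.73e-17 with edgeR), with siCONTROL at 859 to 1011 CPM. The siAtf3 libraries lay far below both other groups. Ppp2r2c, a regulatory subunit of protein phosphatase 2A, had 61, 61.7, 58.5 and 61.1 CPM in the siAtf3 libraries and 178, 172, 164 and 179 CPM in the siAtf4 libraries (log2 -1.51 ± 0.06), and its siAtf4 and siCONTROL levels overlapped (167 to 187 CPM in siCONTROL). Other neuronal genes lower in siAtf3 were Crmp1, of the collapsin response mediators (80.6 ± 6.42 CPM in siAtf3 and 232 ± 17.2 CPM in siAtf4), Celf4, an RNA-binding protein (36.9 ± 3.95 CPM in siAtf3 and 118 ± 7.14 CPM in siAtf4), and Nrn1, neuritin (77.2 ± 10.1 CPM in siAtf3 and 272 ± 44.9 CPM in siAtf4; SD, n = 4 each).

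Higher in siAtf3 were several mitochondrial and stress-linked genes. Ndrg1 had 213, 202, 271 and 225 CPM in the siAtf3 libraries and 52.6, 55.6, 56.9 and 59 CPM in the siAtf4 libraries (log2 fold change 2.02 ± 0.11, adjusted p = 1.23e-14 with edgeR). Pck2, the mitochondrial phosphoenolpyruvate carboxykinase, averaged 96.1 ± 15.7 CPM in siAtf3 and 28.8 ± 5.06 CPM in siAtf4, and Hspa9, the mitochondrial Hsp70, 597 ± 21.1 CPM in siAtf3 and 345 ± 7.39 CPM in siAtf4. Star, which carries cholesterol into mitochondria, had 218, 188, 189 and 189 CPM in the siAtf3 libraries and 56, 57.9, 37.8 and 57.7 CPM in the siAtf4 libraries, while siCONTROL averaged 70.5 CPM. Hoxb9, a homeobox factor of axial identity, averaged 29.1 ± 3.13 CPM in siAtf3 and 3.64 ± 0.896 CPM in siAtf4, and Mmp19, a matrix metalloproteinase, 25.5 ± 2.27 CPM in siAtf3 and 2.99 ± 0.779 CPM in siAtf4. Every siAtf3 library lay above every siAtf4 library for each of these 6 genes.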
